A study of Mus musculus with 9 samples.

Results

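The lysozyme genes Lyz1 and Lyz2 and 8 genes that mark macrophages or leukocytes in general (Adgre1, Cd68, Mpeg1, Lgals3, Ptprc, Cd53, Laptm5 and Coro1a) were examined in murine primary cells cultured from tumors (MPC). They were picked by symbol, and each matched a single row among the 18049 genes listed. RNA-sequencing had been performed on 9 MPC clones. All clones came from pancreatic tumors of WTg mice, which carry EL1-Luc and EL1-Tag (luciferase and the SV40 large T antigen behind the elastase I promoter, which is active in acinar cells) and CAG-Mettl3 (the Mettl3 open reading frame, cloned from C57BL/6J, behind the ubiquitous CAG promoter). The EL1 mice were FVB/N, and the Mettl3 mice crossed with them were made from fertilized eggs of BL/6 parents. Clones without these transgenes were not analysed here. Tumors were minced and plated, attached cells were passaged, and colonies were picked with cloning cylinders, so that each culture is meant to be a clone. The sources used here do not give the age of the mice or how many mice or tumors gave the 9 clones, so the spread below is that between clones. The labels give the treatment as none, although a protocol field names NMS-P937 at 80 nM for 24 h. The labels call the cells fibroblasts.

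The column names fall under 3 prefixes that are not explained. The libraries are therefore named A (1 library), B1 to B4 (4 libraries) and C1 to C4 (4 libraries). Between 12198036 reads in library A and 20453901 in B4 were counted on genes. Values are normalized counts, the authors' scaled read counts with their offset removed, and 1 read was worth 1.26 to 2.19 of them. Library A stood apart in Mettl3, at 2184 normalized counts against 468 to 621 in the others. Xist was at 29664 to 32912 in the B libraries and at most 8.39 in the others, and the split by prefix and the split by Xist cannot be told apart for B against C.

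Lysozyme cleaves the peptidoglycan of bacterial cell walls. The mouse has a pair of adjacent lysozyme genes. Lyz2 encodes the M type, known for its strong expression in macrophages and neutrophils, and Lyz1 the P type, known from Paneth cells of the gut. The other genes cover the surface (Adgre1, which encodes F4/80), the lysosome and phagosome (Cd68, Mpeg1), a carbohydrate-binding lectin (Lgals3), and proteins found across blood cells (the phosphatase CD45 from Ptprc, the tetraspanin Cd53, the lysosomal membrane protein Laptm5 and the actin-binding coronin Coro1a). Macrophages carry all of these classes, whereas fibroblasts are known for collagens and contractile proteins.

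Lyz2 (ENSMUSG00000069516, GRCm38 chromosome 10, 117277541 to 117282272) and Lyz1 (ENSMUSG00000069515, chromosome 10, 117287795 to 117292868) lie 5522 bases apart. The 250 bases before each start are shown, since the genes are near copies that were found at very different levels. Both lie on the minus strand, at chr10:117292869-117293118 for Lyz1 and chr10:117282273-117282522 for Lyz2, and are from RefSeq GRCm38.p6. Capitals mark a match to AGGAAGT, which holds the GGAA core bound by ETS factors such as PU.1, here on the opposite strand.
Lyz1: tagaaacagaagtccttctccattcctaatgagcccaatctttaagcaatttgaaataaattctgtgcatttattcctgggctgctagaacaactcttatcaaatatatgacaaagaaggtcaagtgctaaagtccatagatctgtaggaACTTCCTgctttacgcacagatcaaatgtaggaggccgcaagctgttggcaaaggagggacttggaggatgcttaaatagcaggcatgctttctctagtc
Lyz2: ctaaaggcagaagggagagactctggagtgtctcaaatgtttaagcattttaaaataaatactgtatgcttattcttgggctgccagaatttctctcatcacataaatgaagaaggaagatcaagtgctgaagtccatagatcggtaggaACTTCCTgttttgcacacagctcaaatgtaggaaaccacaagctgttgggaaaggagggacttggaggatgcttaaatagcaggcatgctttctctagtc

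Compared base by base without gaps, 92 of the 100 bases nearest the start were identical between Lyz1 and Lyz2, and 152 of all 250. The match to AGGAAGT begins 100 bases before the start in both. Promoter windows were found for 9 of the 10 genes. AGGAAGT, searched on both strands and chosen after these sequences were seen, lay in the windows of 3 of the 9 genes, Lyz1, Lyz2 and Ptprc. Counted by window, it lay in 4 of the 11 windows of these genes and in 7.69% of 32851 windows of this length. The windows of Ptprc overlap each other. A match describes the letters and does not show binding.

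Lyz2 was at 407389 ± 81985 normalized counts (SD, n = 9 clones). It was at 421299 in library A. The B libraries held 427773, 422089, 435401 and 413660, and the C libraries 339437, 341916, 287615 and 577311. The B libraries thus lay close together, while library C4 was the highest of all and C3 the lowest, a 2.01-fold range within prefix C. Reads of Lyz2 made up 1.58% ± 0.307 of all reads counted on genes (SD, n = 9). The share was 1.14% in C3 and 2.21% in C4, whose 95% Wilson interval was 2.21% to 2.22% and covers counting error alone.

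Lyz1 was far lower, at 279 ± 116 normalized counts (SD, n = 9), with 24 to 320 reads behind each value. It was at 52.5 in library A. The B libraries held 319, 346, 321 and 319, and the C libraries 225, 245, 211 and 473. Library C4 was again the highest and C3 the lowest of the C libraries, as for Lyz2. Across the 8 libraries of prefixes B and C, Pearson's r of log2 Lyz1 with log2 Lyz2 was 0.981, given as a description. With library A included, r was 0.295.

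The share of Lyz1 among the reads of both lysozyme genes was 0.0751% ± 0.00522 (SD, n = 8) in prefixes B and C, with a range of 0.0663% to 0.0819%. It was 0.0125% in library A (95% Wilson interval 0.00838% to 0.0185%). The lowest interval of the other 8 libraries began at 0.0571%. The low Lyz1 share of library A is therefore outside counting error, but this library has no replicate, and clone and prefix cannot be told apart. Reads of near-identical paralogs can be assigned to either copy. RSEM, which is named in the submitters' processing notes, divides such reads by estimation, so the level of Lyz1 is uncertain wherever Lyz2 is high. How many Lyz1 reads also match Lyz2 was not tested. The Paneth cell genes on the marker list (defensins and others) were not found by symbol among the 18049 genes listed, so their levels are not known.

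**Figure D1:**
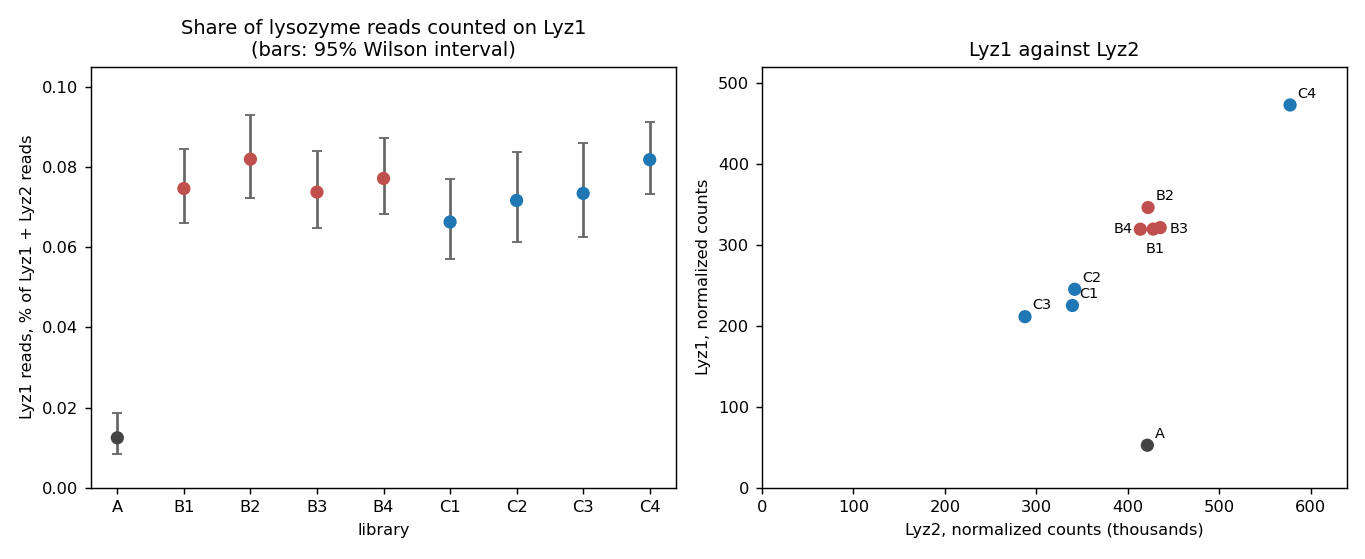
Left, Lyz1 reads as a percentage of Lyz1 and Lyz2 reads in each library (bars, 95% Wilson interval), and right, Lyz1 against Lyz2 in normalized counts, with dark grey for prefix A, red for prefix B and blue for prefix C. Library A is at 0.0125% and the other 8 libraries lie between 0.0663% and 0.0819%.

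Adgre1 (ENSMUSG00000004730, chromosome 17, 57358581 to 57483529), the gene of the F4/80 receptor by which mouse macrophages are commonly stained, was at 20389 ± 5203 normalized counts (SD, n = 9). It was at 16790 in library A. The B libraries held 27704, 23334, 27573 and 21086, and the C libraries 14768, 12904, 20276 and 19066. All B libraries were above all C libraries, and the whole range was 2.15-fold.

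Of the genes of the lysosome and phagosome, Cd68 (ENSMUSG00000018774, chromosome 11, 69664213 to 69666170), a glycoprotein of late endosomes and lysosomes, was at 22393 ± 4084 (SD, n = 9). Its values were lowest in C2 and A, at 16188 and 16246, with a median of 23070, and highest in B3, at 27290. Mpeg1 (ENSMUSG00000046805, chromosome 19, 12460770 to 12465285) encodes perforin-2, which forms pores in engulfed bacteria. It was at 60528 ± 9967 (SD, n = 9), from 40785 in C2 through a median of 62272 to 73432 in B3. For Cd68 and Mpeg1 the B and C libraries overlapped.

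Lgals3 (ENSMUSG00000050335, chromosome 14, 47373860 to 47386167) encodes galectin-3, which is also made by fibroblasts and epithelial cells. It was at 23153 ± 3399 normalized counts (SD, n = 9), from 17567 in C2 through a median of 23089 to 29381 in C4, and the other genes with their highest value in C4 were Lyz1 and Lyz2.

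The genes found across leukocytes were present in every clone. Ptprc (ENSMUSG00000026395, chromosome 1, 138062859 to 138175756) was at 7162 ± 1120 normalized counts (SD, n = 9). Its values were lowest in C1 and C2, at 5436 and 5521, with a median of 7685, and highest in B1, at 8487. Cd53 (ENSMUSG00000040747, chromosome 3, 106758861 to 106790149) was at 6903 ± 1112, from 4957 in C2 through a median of 7024 to 8428 in B3. Laptm5 (ENSMUSG00000028581, chromosome 4, 130912890 to 130936148) was at 31049 ± 7124, from 19727 in C2 through a median of 32243 to 41475 in B3. It was also low in A, at 22069. Coro1a (ENSMUSG00000030707, chromosome 7, 126699774 to 126704816) was at 5745 ± 699, from 4813 in C1 through a median of 5600 to 7067 in C3. The B and C libraries overlapped for all 4 of these genes. The smallest number of reads behind any value of these 4 genes was 2557, so counting error was small beside the spread between clones.

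The clone with low values was largely the same. Library C2 was the lowest of the 9 for 6 of the 10 genes (Adgre1, Cd68, Mpeg1, Lgals3, Cd53 and Laptm5). Of the 5192 genes whose mean reached 1000 normalized counts, 20.1% had their lowest value there. Library B3 was the highest for 4 of the 10 (Cd68, Mpeg1, Cd53 and Laptm5), and 22.1% of the 5192 genes were highest there. For the 9 members above that mean, the SD of log2(normalized counts + 1) over clones was 0.26 in the median. It was 0.17 over the 5192 genes, with quartiles of 0.11 and 0.27. Adgre1 had the largest SD of the 9, at 0.38, and Coro1a the smallest, at 0.17. Together the 10 genes held 2.27% ± 0.373 of all reads counted on genes (SD, n = 9), from 1.80% in C2 to 2.95% in C4.

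**Figure D2:**
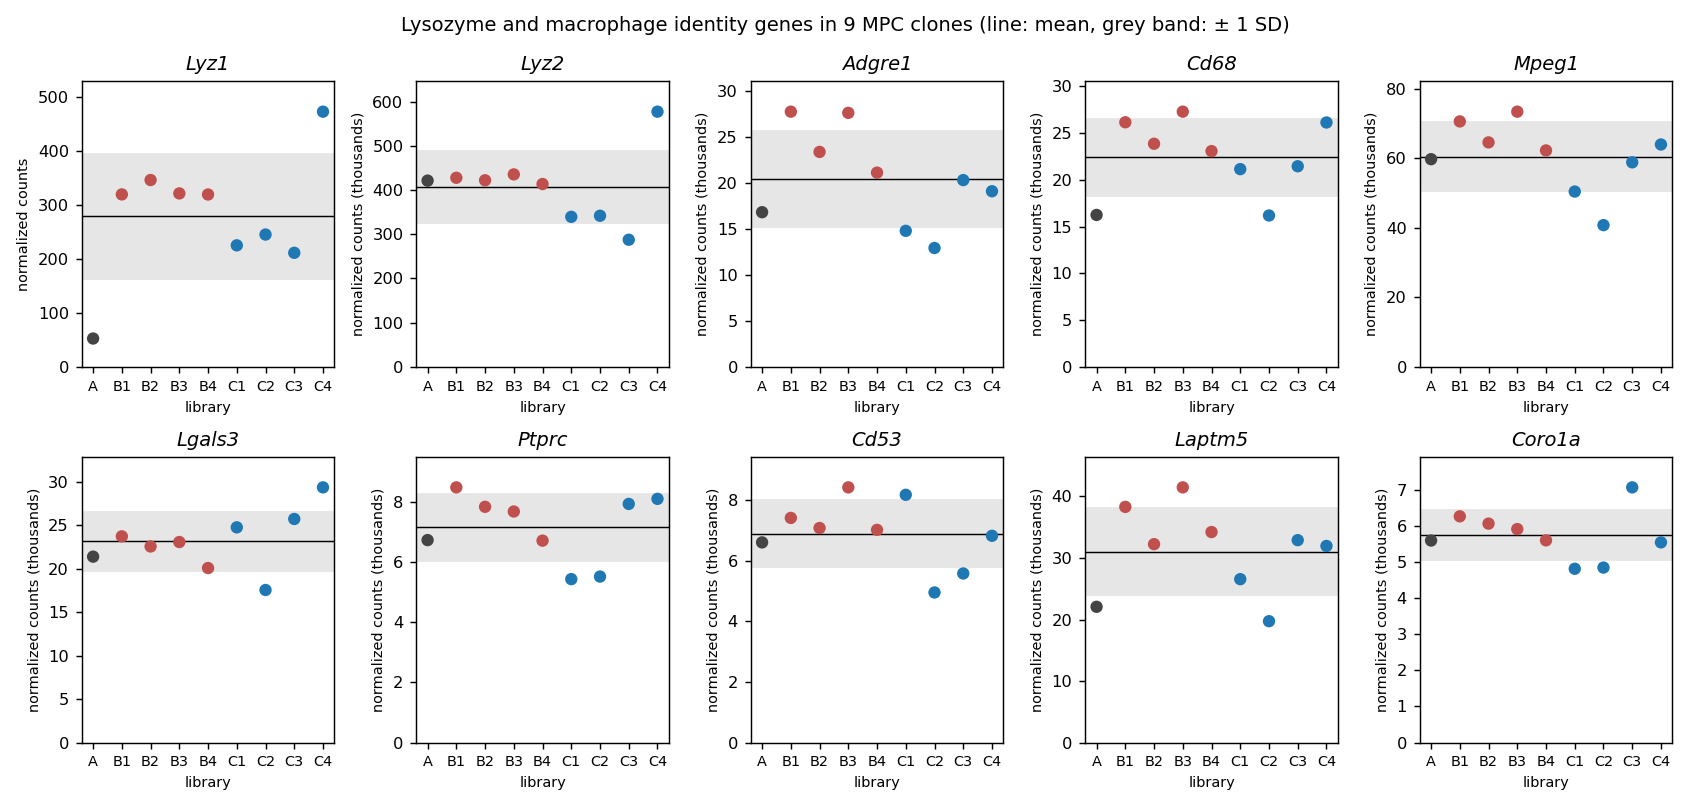
Normalized counts of the 10 genes in each of the 9 libraries (dark grey, prefix A; red, prefix B; blue, prefix C), with the mean as a line and 1 SD as a grey band; all axes start at 0. Library C2 is the lowest for 6 of the genes, and Lyz1 is lowest in library A at 52.5 normalized counts.

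Genes of the wider macrophage program were measured beside the members. Of 25 further macrophage genes, 24 were listed and 22 had more than 3 reads in every library. Their summed level was 570302 ± 102072 normalized counts (SD, n = 9), lowest in C2 at 420739 and highest in B3 at 724284. These clones were also at the ends of the range for Cd68, Mpeg1, Cd53 and Laptm5. Csf1r, the receptor through which CSF1 keeps macrophages alive, was at 20587 in C2 and 59537 in B3. Spi1, which encodes the myeloid transcription factor PU.1, was at 5553 ± 1409 (SD, n = 9). Cd163, Vsig4 and Marco, which mark subsets of tissue macrophages, were low, at 18.1 ± 10.7, 118 ± 138 and 61.2 ± 51.0 normalized counts. Vsig4 was above 3 reads in 7 of the 9 libraries.

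Because Ptprc, Cd53, Laptm5 and Coro1a are shared by leukocytes, markers of other blood cells were examined. Of 3 T cell genes measured, Cd247, a chain of the T cell receptor complex, was under 3 reads in every library, while Cd4, which some macrophages also carry, was at 0 to 87.8 normalized counts and Trac at 24.1 to 262. Pax5, which defines B cells, was not above 3 reads in any library. S100a8, abundant in neutrophils, was at 2.19 to 24.6. Zbtb46, known from dendritic cells, was at 25.2 to 49.8. The summed T cell, neutrophil and dendritic cell genes (3, 1 and 1 measured) thus reached 296, 24.6 and 49.8 normalized counts at most. The sum of the 24 macrophage genes was at least 420739, and Ctsd alone among them was at 165580 to 289194. As the lists differ in size and content, these sums are not a like comparison. Most genes of the lists for other blood cells were not found by symbol among the 18049 genes listed. The same held for all genes of the NK cell, mast cell and erythroid lists, so their levels are not known.

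The labelled cell type was also present in the counts. All 11 fibroblast genes exceeded 3 reads throughout, and their sum was 364793 ± 145931 normalized counts (SD, n = 9), from 175486 in B3 to 607069 in A. Col1a1, the main chain of fibrillar collagen, was at 37439 to 164208, and Acta2, the smooth muscle actin of myofibroblasts, at 36503 to 89292. Of 6 epithelial genes, Epcam had no read in any library, which at this depth allows up to 3.79 to 6.56 normalized counts, and Krt8 at most 1 read. Cdh1 was at 8.91 to 152, Krt19 at 7.23 to 145 and Krt7 at 0 to 158 normalized counts, and the sum of the list was 20.3 to 314. Each library thus held abundant RNA of both macrophage and fibroblast genes. In bulk RNA, fewer cells of a type and less RNA per cell cannot be told apart, and whether the same cells carried both sets was not tested.

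Whether the macrophage genes varied against the fibroblast genes was tested with a fibroblast score, the mean log2(normalized counts + 1) of the 11 fibroblast genes. The score was lowest in B3 at 13.1 and highest in A at 14.8, and all B libraries were below all C libraries. All 10 genes were negatively correlated with it over the 9 libraries, with Pearson's r from -0.85 to -0.16 and a median of -0.62. Among all 16951 genes tested outside the score, 53.3% had a negative r, and among the 5182 with a mean of 1000 or more, 52.8%. After Benjamini-Hochberg adjustment over the 10 relations, 2 passed an adjusted p of 0.05, Laptm5 and Cd68. An r at or below that of Cd68 was found for 4.63% of the 16951 genes and for 8.18% of the 5182. Laptm5 had r = -0.847 (by exact permutation, two-sided as in all that follow, p = 0.0039, adjusted p = 0.020, n = 9) and rho = -0.817 (exact permutation test, p = 0.011, adjusted p = 0.046). Cd68 had r = -0.844 (exact permutation test, p = 0.0037, adjusted p = 0.020, n = 9) and rho = -0.767 (exact permutation test, p = 0.021, adjusted p = 0.053). These permutations moved values freely among the 9 libraries and so took the clones as independent. The score split prefix B from prefix C, and whether clones of a prefix share a mouse or tumor is not known.

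With the authors' scaling, Adgre1 and Cd53 passed by rank alone. No gene passed by rank after upper quartile scaling (lowest adjusted p = 0.087) or without library A (lowest adjusted p = 0.073, exact permutation tests). By r, 3 passed after upper quartile scaling, Laptm5, Cd68 and Adgre1. There Adgre1 had r = -0.813 (exact permutation test, adjusted p = 0.028, n = 9). The share of all genes with such a rho, or with such an r after that scaling, was not computed. Adgre1 had r = -0.744 (exact permutation test, p = 0.022, adjusted p = 0.073, n = 9) and rho = -0.817 (exact permutation test, p = 0.011, adjusted p = 0.046). Cd53 had r = -0.663 (exact permutation test, p = 0.051, adjusted p = 0.10, n = 9) and rho = -0.800 (exact permutation test, p = 0.014, adjusted p = 0.046). Lyz2, the most abundant of the genes by reads, had r = -0.159 (exact permutation test, p = 0.69, adjusted p = 0.69, n = 9) and rho = -0.333 (exact permutation test, p = 0.39, adjusted p = 0.48). For Lgals3, r was -0.195 (exact permutation test, p = 0.62, adjusted p = 0.69, n = 9), and for Ptprc and Coro1a it was -0.380 and -0.268.

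The relations did not hold at the adjusted threshold within prefixes. After centring within prefixes B and C, r was -0.602 for Laptm5 and -0.611 for Cd68 (exact permutation tests within prefixes, adjusted p = 0.42 for each, n = 8), and none of the 10 passed. Cd53 had the most negative r there, at -0.859 (exact permutation test within prefixes, p = 0.012, adjusted p = 0.12, n = 8). Without the 2 libraries farthest from the median score, A and B3, r was -0.739 for Laptm5 and -0.691 for Cd68, and none of the 10 passed. The calls of Laptm5 and Cd68 were thus lost in both, with fewer libraries in each test. The r of Cd53 was more negative in both, at -0.790 without A and B3, and that of Adgre1 was -0.436 after centring and -0.760 without A and B3. Without library A, Adgre1, Mpeg1, Cd53 and Laptm5 passed by r and none by rho, each r with an adjusted p of 0.044 (exact permutation test, n = 8), and Cd68 did not, with r = -0.751 (exact permutation test, adjusted p = 0.059, n = 8). The share of all genes with such an r was not computed without library A, so these calls cannot be read as particular to the members. Counts scaled within a library are not independent of each other, which acts on every relation of this kind.

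**Figure D3:**
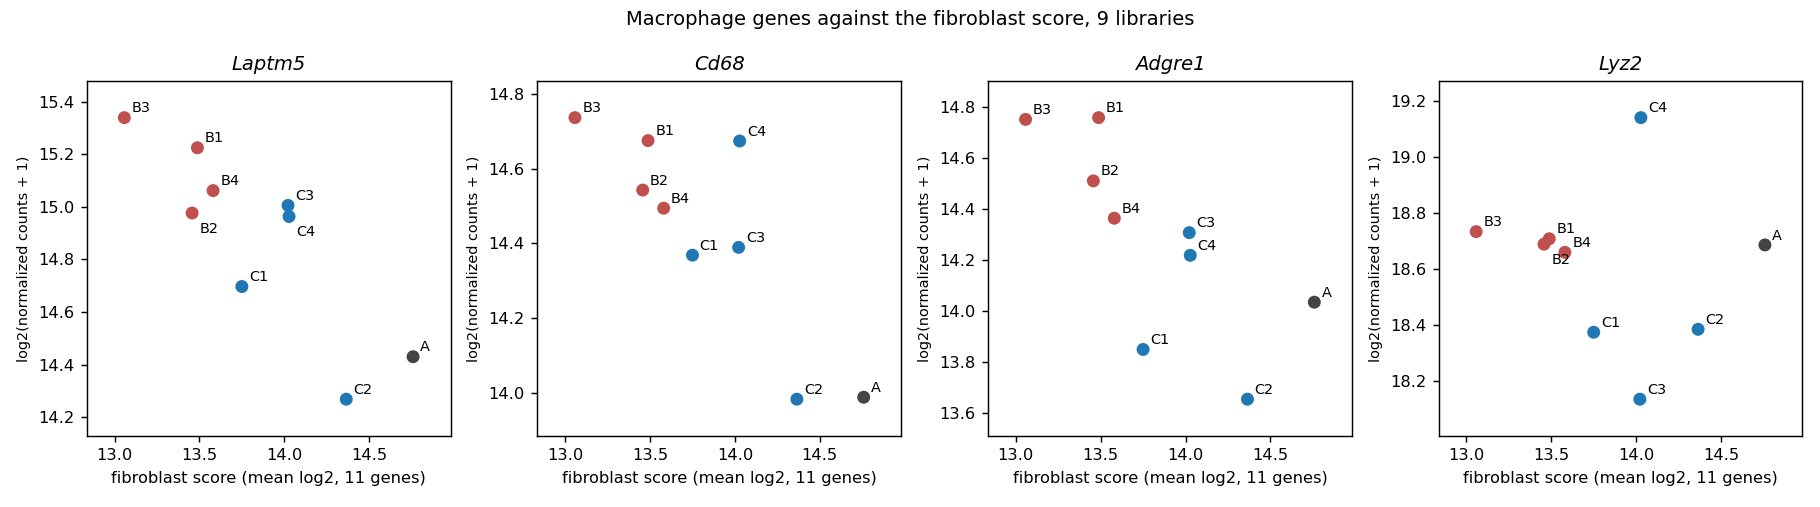
Log2(normalized counts + 1) of Laptm5, Cd68, Adgre1 and Lyz2 against the fibroblast score in the 9 libraries (dark grey, prefix A; red, prefix B; blue, prefix C). Laptm5 falls from B3 to C2 and A along the score (r = -0.847), while Lyz2 shows no such order (r = -0.159).

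How the members varied together was described by Pearson's r of log2 values over the 45 pairs, with no test, since all pairs share the same 9 libraries. The median r was 0.533, with a range of -0.087 to 0.938, and 43 of the 45 were positive. The median r of a member with the other 5183 genes above a mean of 1000 normalized counts was 0.057, and 53.2% of those r were positive. An r of at least 0.8 was found for 8 of the 45 pairs and for 6.65% of the pairs of a member with another gene. Adgre1, Cd68, Mpeg1, Ptprc and Laptm5 formed a close set, picked from these same values. Its r ran from 0.689 between Cd68 and Ptprc to 0.938 between Cd68 and Laptm5. It was 0.928 between Adgre1 and Mpeg1, and 0.839 between Ptprc and Adgre1. Coro1a was close to Ptprc (r = 0.841) but not to Lyz2 (r = -0.087) or Cd53 (r = -0.024). The 5 genes of that set thus varied together more closely than with the lysozyme genes, apart from Lyz1 with Cd68 (r = 0.748). The lysozyme genes were highest in library C4. Without library A the median r was 0.545, and after centring within prefixes B and C it was 0.607.

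**Figure D4:**
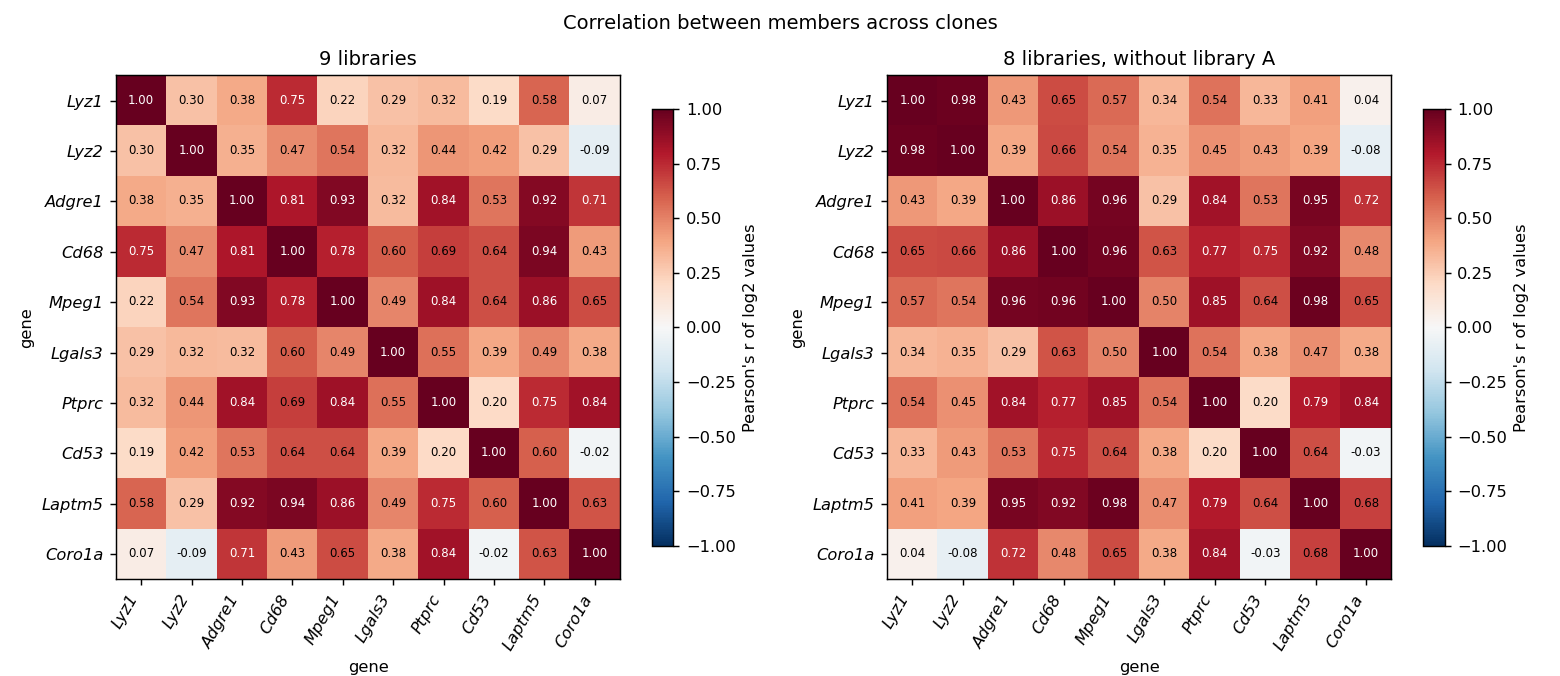
Pearson's r of log2(normalized counts + 1) between the 10 genes, over all 9 libraries (left) and without library A (right), with the value in each cell. The pair Lyz1 and Lyz2 is at 0.295 on the left and 0.981 on the right.

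The genes most like Lyz2 and Ptprc were ranked among 14695 genes averaging 10 or more normalized counts, by Pearson's r over the 9 libraries. For Lyz2 they were Clcn7 (r = 0.936), which encodes a lysosomal chloride transporter, Irf9 (0.924), a factor of interferon signalling, Plbd2 (0.915), Zfyve1 (0.914) and the interferon-induced Mx2 (0.910). For Ptprc they were Zfp952 (0.988), the tyrosine kinase Syk (0.975), which signals below immune receptors, Gngt2 (0.975), Pld2 (0.970) and the cannabinoid receptor gene Cnr2 (0.967). Being picked as the highest of many, these values are descriptions.

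The split of the columns was tested by comparing prefix C with prefix B, 4 libraries each, with limma across all genes. None of the 10 members was called at an adjusted p under 0.05, and 0.171% of the 16985 genes tested were. At an unadjusted p under 0.05, 2 of the 10 passed with limma, Adgre1 and Laptm5, beside 18.5% of all genes. With limma's voom on recovered reads, also 0 were called and 3 passed the unadjusted threshold, beside 18.2% of all genes. With all libraries of both prefixes, these counts are near the share over all genes. Lacking C4, 5 of the 10 passed the unadjusted threshold with limma, beside 2999 of 16957 genes. Lacking C3, 4 did, beside 3843 of 16959 genes. With any other library left out, 1 or 2 did. Of the 10 genes, 9 had a lower mean log2 value in prefix C, as did 52.5% of all genes, with a median difference of -0.26 against -0.016 over all genes. The median of the 10 rests in part on library C2, without which it was -0.14. Adgre1 was lower by the largest amount, a log2 difference of -0.59 (SE 0.16, limma adjusted p = 0.16), followed by Laptm5 at -0.42 (SE 0.17, limma adjusted p = 0.25) and Mpeg1 at -0.36 (SE 0.16, limma adjusted p = 0.28). Without C2, Laptm5 was at -0.26 and Mpeg1 at -0.23. Lgals3 was the exception at 0.10 (SE 0.15, limma adjusted p = 0.74). Adgre1 was the member whose C libraries all lay below all B libraries, as they did for 5.24% of all genes. Without library C3, 263 genes in all were called against 29 with it, and the adjusted p of Adgre1 was 0.079 (limma).

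The marker lists were fitted in the same way. None of the 24 other macrophage genes was called (limma), with a median log2 difference of -0.44. Of the 11 fibroblast genes, Col5a2 was called, at 1.28 higher in prefix C on the log2 scale (SE 0.16, limma adjusted p = 0.035), a call that was lost without any of B1, B2, B3, C1, C2 or C4 and without a trend, and the median difference was 0.75. Of the 11, Dcn, which encodes decorin, had a lower mean in prefix C, at -1.79 (SE 0.60, limma adjusted p = 0.20). The part of the fibroblast genes in the differences of Adgre1 and Laptm5 was not tested.

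Since Mettl3 is the gene carried by the transgene, each gene was also fitted with limma on log2 Mettl3 over the 9 libraries. Of the 10 members, Lyz1 was called with a negative slope, as were 2.13% of the 16961 genes tested. Its slope was -1.11 per log2 unit of Mettl3 (SE 0.22, limma adjusted p = 0.032). The call rests on library A, which has the highest Mettl3 and the lowest Lyz1. Without that library the slope was 1.16 (SE 0.78, limma adjusted p = 0.59), and 0 genes in all were called by limma, against 1772 at an unadjusted p under 0.05. The call was also lost with voom (slope -0.84, SE 0.41, adjusted p = 0.52). With prefix as a term the slope was 1.28 (SE 1.45). That fit is not a separate check, because prefix A holds 1 library and the term takes it out of the slope. The other 9 members had slopes between -0.19 and 0.074, with standard errors up to 0.25, and none was called, also with voom. Among the 24 other macrophage genes, Cd14, the coreceptor for lipopolysaccharide, was called with a slope of 0.40 (SE 0.065, limma adjusted p = 0.012), and it too was highest in library A. Without library A, none of the 24 was called. Whether Mettl3 acts on these genes was not tested, because clones without the transgene were not analysed here.

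**Figure D5:**
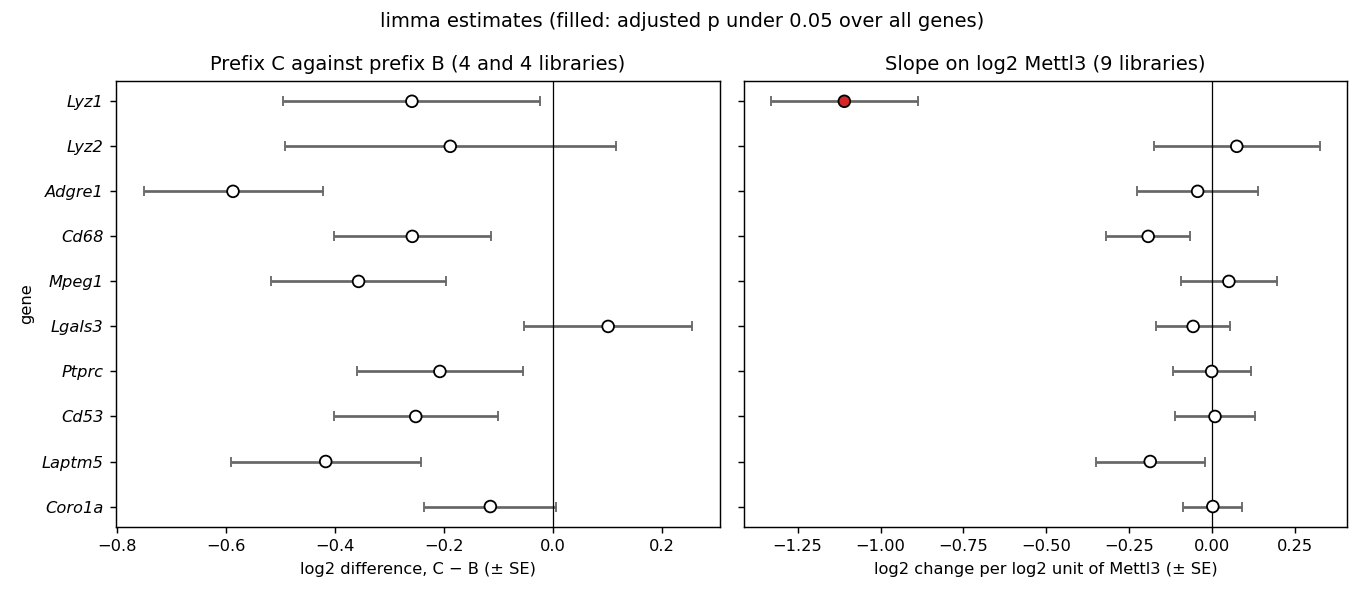
limma estimates for the 10 genes with their standard errors. Left, the log2 difference of prefix C against prefix B, and right, the log2 change per log2 unit of Mettl3 over 9 libraries; the filled point, Lyz1 at -1.11, has an adjusted p under 0.05 and rests on library A.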

How the data were processed

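Stranded mRNA libraries of 9 MPC clones were sequenced. The authors deposited log2 values of read counts that had been scaled, each library by its own factor, after adding 4. The submitters' processing notes name FastQC 0.11.9, STAR 2.7.10, RSEM 1.3.3 and GRCm38, and the software for scaling is not given in the sources used here. The log2 was undone and 4 subtracted, and whole reads were recovered from the step of each library (100% of nonzero values under 1000 reads, within 0.1 read). The table holds 6 columns of libraries from other studies, which were not used in any step. Column names match no sample title, so the 9 libraries were replicates of 1 group.

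Tests used log2(normalized counts + 1) with limma 3.58.1 (trend) in R 4.3.3, for genes averaging 1 or more normalized counts, with Benjamini-Hochberg adjustment over all genes, and exact permutation tests in Python 3.11.15 with numpy 2.4.6 and scipy 1.17.1. The fits were also run on simulated data, whose spread was taken from the B libraries alone. Every member had a smaller SD over the B libraries than over the C libraries. Library A was given no effect of its own in the simulation. The shares recovered may therefore be too high for the data. Of 200 genes given a log2 change of 1, 78.5% were recovered between prefixes and 92% on Mettl3. Of the genes called there, 6.55% and 8% were unchanged ones. At a log2 change of 2, unchanged genes made up 6.44% and 11.2% of the calls. Intervals (95%) and the floor of 3 reads cover counting error only. Exonic lengths were not at hand, so levels were not compared per length, as had been planned. Named genes were the 10 members, the marker lists, Mettl3 and the 5 genes most like Lyz2 and Ptprc; Xist was added after its values were seen. Members and lists were chosen with earlier results of these data known. Alternatives were other pseudocounts, filters and scalings, no trend, voom, column prefix as a term, centring within prefixes and leaving out libraries.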

Additional observations from a re-analysis of the deposited data

Results flagged for a closer look

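Of 43 values examined (the 10 genes, the lysozyme share, the other macrophage genes and the summed marker lists), 4 had a library that stood off from its nearest neighbour by more than 0.493 of the range. About 2.15 of 43 would do so by chance if the values were independent and normally distributed. They are not independent, since the macrophage sum holds genes also examined singly, so that number is a rough guide. The Lyz1 share of lysozyme reads was far lower in library A, with a gap of 0.775 of the range (0.0125% against 0.0663% in the next library). Cd14 was far higher in library A, with 0.723 of the range (6219 against 3913 normalized counts). Marco, a scavenger receptor gene, was far higher in library B3, with 0.602 of the range (187 against 79.5 normalized counts). The summed acinar genes were far higher in library C3, with 0.889 of the range (2415 against 396 normalized counts), the library with the lowest Lyz2 and the highest Coro1a. The part of these libraries in the results above was not tested beyond leaving each out.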

How the results depend on the processing

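No paired analysis was possible because the 9 clones form 1 group and their columns carry no shared numbers. Mean levels of the 10 genes stayed within 1 SD under both rescalings and when any library was left out. Rescaling factors were at most 0.068 on the log2 scale, so this says little. Between prefixes, none of the 10 genes was called under any of the 15 alternatives; 17 genes in all were called without a trend and 10 to 263 when a library was left out, against 29 (10 lacking B1 or C4, 11 lacking B3, 16 lacking B2, 17 lacking C2, 18 lacking B4, 263 lacking C3). On Mettl3, 656 genes were called with a pseudocount of 0.1, 238 with a filter at a mean of 50, 69 with voom and 0 with prefix as a term, against 417, and 0 to 511 when a library was left out, with 0 lacking A. The count of members called there was 0 with voom and with prefix as a term, and 0 to 1 when a library was left out, with 0 lacking A, B1 or B4. Where members changed sign of slope, none had been called except Lyz1. With prefix as a term the slopes were 1.28 for Lyz1, 0.67 for Adgre1, 0.47 for Cd68, 0.49 for Lgals3, 0.79 for Ptprc and 0.14 for Laptm5. With upper quartile scaling they were -0.028 for Cd53 and -0.043 for Coro1a. Leaving out a library, they ranged from -1.18 to 1.16 for Lyz1, -0.11 to 1.88 for Adgre1, -0.24 to 0.89 for Cd68, -0.0020 to 1.17 for Mpeg1, -0.047 to 0.85 for Ptprc, -0.036 to 0.75 for Cd53, -0.25 to 1.22 for Laptm5 and -0.027 to 0.40 for Coro1a. Of the 10 relations with the fibroblast score, 3 passed by r after upper quartile scaling and 4 without library A. Without the 2 farthest libraries 0 passed, and 0 after centring within prefixes, where Lyz1 turned to r = 0.057. For these counts no share over all genes was computed. The causes were not tested. Depth limits Lyz1 most, with 24 reads in library A.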
